A study of Homo sapiens with 8 samples.

Results

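SK-N-SH cells carrying a control knockdown (KD control, 2 libraries) were compared with parental SK-N-SH cells (2 libraries), both treated with all-trans retinoic acid (ATRA). These are 4 of the 8 libraries of the series. They were taken by their labels, and all 60659 genes of the count table entered, of which 20385 had enough counts to be tested. SK-N-SH is a human neuroblastoma line, labelled here as epithelial neuroblastoma cells. All 4 cultures were kept in differentiation medium with 10 µM ATRA for 24 h. The label of the parental cells adds doxycycline (Dox), the inducer used for FLAG-tagged ZMYND8 in the overexpression experiment, and that of the KD control names no Dox. For knockdown of ZMYND8 the methods describe lentiviral shRNA, with drug selection given for SH-SY5Y and neural stem cells but not for SK-N-SH. In SK-N-SH the paper describes a knockout of ZMYND8. How SK-N-SH cells were knocked down is thus not described in the methods. The control construct is not described there or in the labels. By the labels, ZMYND8 is neither overexpressed nor knocked down in these 2 groups. Whether the KD control also received Dox is not described. Dox, the knockdown procedure, the state of the culture and the batch of libraries cannot be told apart here, so every difference below is a difference between 2 sets of libraries. The labels call the 2 libraries of a group biological replicates, and p-values measure the spread between these samples only.

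Neuroblastoma comes from the sympathoadrenal lineage of the neural crest, and its cells occur in an adrenergic state, with noradrenergic neuronal traits, and a mesenchymal state, which resembles neural crest or stromal cells. SK-N-SH is known to hold cells of both kinds. The adrenergic state is set up by transcription factors such as GATA and HAND proteins, the mesenchymal state by PRRX1, AP-1 and YAP/TAZ. ATRA acts through retinoic acid receptors, slows division and brings out neurites in many neuroblastoma cultures.

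The libraries were made from total RNA after removal of ribosomal RNA, and the authors deposited read counts per gene. Total counts were 54254164 and 56256979 for KD control and 44593697 and 54320055 for parental cells. The groups differed in the makeup of the libraries. The 37 mitochondrially encoded genes took 2.96% and 2.92% of the counts in KD control against 0.11% and 0.163% in parental libraries. Genes of snoRNAs and scaRNAs took 0.352% and 0.371% against 0.0102% and 0.00822%. In 277 pairs of an antisense lncRNA and a coding gene, the summed antisense count was 0.136% and 0.14% of the summed sense count in KD control and 1.18% in both parental libraries. The ZMYND8 overexpression libraries resembled the parental ones in these shares, and the ZMYND8 knockdown libraries resembled the KD control. The part of these shares in the results on other genes was not tested, but the counts of the gene lists are also given without mitochondrial genes, small RNA genes and genes with 10% or more of their exon bases opposite the exons of another gene, named here the set without strand overlap.

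**Figure D1:**
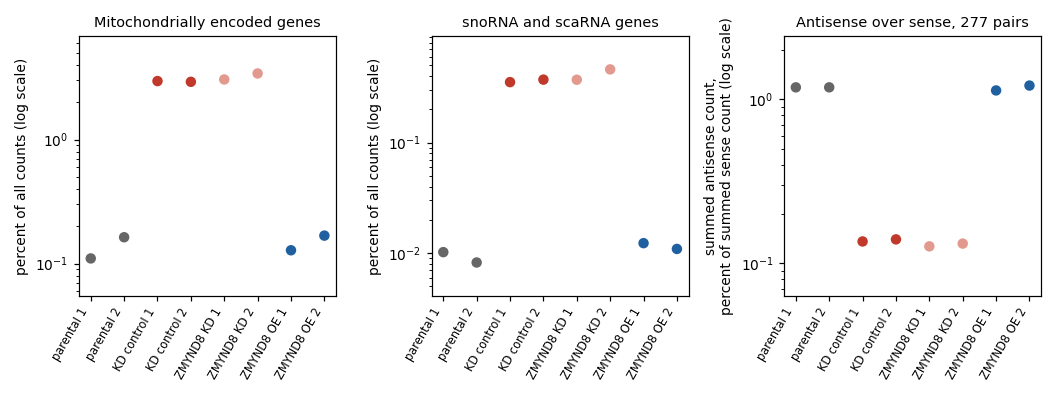
Percent of all counts on the 37 mitochondrially encoded genes (left) and on snoRNA and scaRNA genes (middle), and antisense counts in percent of sense counts over 277 gene pairs (right), on log axes, with 1 point for each of the 8 libraries. KD control and ZMYND8 knockdown libraries lie together, and parental and ZMYND8 overexpression libraries lie together, in all 3 panels.

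Markers bore the label out in part. PHOX2A, a transcription factor of noradrenergic neurons, had 6337 and 6949 counts in KD control and 4437 and 5504 in parental libraries. TH, which makes the rate-limiting enzyme of catecholamine synthesis, had 0 and 0 against 0 and 1 counts. The mesenchymal genes VIM (45589 to 115038 counts) and FN1 (65372 to 91467 counts) were abundant in all 4 libraries. Of 12 Schwann cell and glial markers, 8 endothelial, 9 blood cell and 6 adrenal cortex markers, 2, 0, 3 and 3 were at 0 counts in all 4 libraries. Their summed levels in KD control and parental libraries were 60.2 and 63.1 against 55.6 and 56.1 CPM (counts scaled to equal library totals) for the Schwann list, 3.04 and 2.97 against 5.02 and 4.93 for the endothelial list, 1.29 and 1.1 against 1.66 and 1.18 for the blood list, and 0.885 and 1.32 against 0.202 and 0.313 for the adrenal cortex list. SOX10, which defines Schwann cells, had 0 and 0 against 1 and 0 counts, and PTPRC, which marks blood cells, 0 and 2 against 2 and 0. Other members of the Schwann and glial list were expressed, with the highest means in PMP22, MBP and S100B. Of its 8 tested members, S100B was called higher and ERBB3 lower by the rule given below. That is 12.5% each, against 10.8% and 10.9% of all genes, and ERBB3 was not called without the second parental library (log2 fold change -0.84). The 9 epithelial markers, 1 of them at 0, summed to 422 and 363 against 448 and 445 CPM, mostly from KRT18. Other members were near 0, with CDH1 at 0 and 0 against 0 and 1 counts and ESRP1 at 1 and 2 against 0 and 0. KRT14 had 0 and 1 against 0 and 0 counts, and KRT5 had 0 in all 4 libraries. KRT8 was called lower in KD control. In RNA from whole cultures, fewer cells of a type and less RNA per cell cannot be told apart.

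Genes were tested with edgeR's quasi-likelihood test. To be called, a gene had to pass 0.05 in the p adjusted by Benjamini-Hochberg, differ by 1 or more on the log2 scale in either direction, and exceed 20 in mean normalized count. Errors of log2 fold changes are standard errors (SE). By this rule 4412 genes differed between KD control and parental cells, 21.6% of those tested, with 2199 (10.8%) higher and 2213 (10.9%) lower in KD control. The median log2 fold change over all genes tested was 0.00, and at the adjusted p alone 6855 genes were higher and 7389 lower. In normalized counts, both KD control libraries were above both parental ones for 8351 of the 20385 genes and below them for 9031. Groups without overlap were thus the usual case, and below this only describes the counts of a gene. The same rule called 3874 genes (18.6%) between ZMYND8 overexpression and parental cells, 2448 (11.7%) higher and 1426 (6.84%) lower. That comparison shares the parental libraries, so its values are set beside those of the KD control without being counted as agreement. The direct test of ZMYND8 overexpression against KD control, in a fit over all 8 libraries, called 4873 genes (21.5%), 3068 (13.6%) higher and 1805 (7.98%) lower in overexpression. It tests where the 2 differences from parental cells differ, which amounts to overexpression against KD control. These 2 groups also differ in the library shares above, in the Dox label, in procedure and in batch, which cannot be told apart from ZMYND8 overexpression. Direct differences below are therefore differences between sets of libraries, and no counts without strand overlap are given for them.

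ZMYND8, a reader of modified histones (ENSG00000101040, GRCh38 chromosome 20, 47209214 to 47356889), had 3128 and 3374 counts in KD control and 3089 and 3612 in parental libraries. Raw counts overlapped, and after normalization the log2 fold change was -0.23 (SE 0.05, edgeR adjusted p = 0.00163), short of a call. Its counts were 220691 and 182849 in overexpression and 1641 and 1640 in knockdown libraries.

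Most calls in the neuronal and catecholamine lists were higher in KD control, and most in the matrix, surface and cell cycle lists were lower. Numbers of members tested, calls and medians are given below, read against 10.8% of all genes called higher and 10.9% called lower. Listed members with too few counts were not tested. A member near 0 counts in 1 group was tested only through its counts in the other, and so could differ only toward that group. Overexpression counts of a list cover only members tested in KD control against parental cells. They leave out members with counts almost only in overexpression, and so understate these. The receptor gene GABRA2, for example, had 205 and 159 counts in overexpression libraries and 0 in KD control and parental ones. Over the same 20385 genes, the direct test called 2737 higher and 1804 lower in overexpression. In the set without strand overlap, the lists whose counts there are not given below had these calls. Of 693 named or listed genes, 604 had a value there. The members left per list and the share of all genes called there are not given. A lower count or a shifted median there can therefore come from members taken out. Of neuronal lists, 7 catecholamine genes were higher and 1 lower, 17 synaptic genes higher and 1 lower, 14 receptors higher and 0 lower, 10 channels higher and 3 lower, 5 granins and neuropeptides higher and 3 lower, and 6 neurotrophic and kinase receptors higher and 3 lower. The median of the channels was 1.07 there against 0.61 with all genes. Of mesenchymal lists, 4 transcription factors were higher and 2 lower, 0 matrix genes higher and 21 lower, 0 surface genes higher and 8 lower, 2 contractile genes higher and 2 lower, 4 YAP/TAZ targets higher and 3 lower, and 4 TGF-beta and BMP genes higher and 5 lower. Of the others, 6 ATRA response genes were higher and 4 lower, 4 HOX genes higher and 0 lower, 11 histone genes higher and 2 lower, 4 AP-1 genes higher and 1 lower, 0 cholesterol genes higher and 5 lower, and 1 hypoxia gene higher and 6 lower. For p53 targets 2 were higher and 0 lower, for the ATF4 response 2 higher and 1 lower, for Notch genes 1 higher and 2 lower, for chromatin genes 1 higher and 1 lower, and for the downregulated KEGG genes 15 higher and 95 lower.

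**Figure D2:**
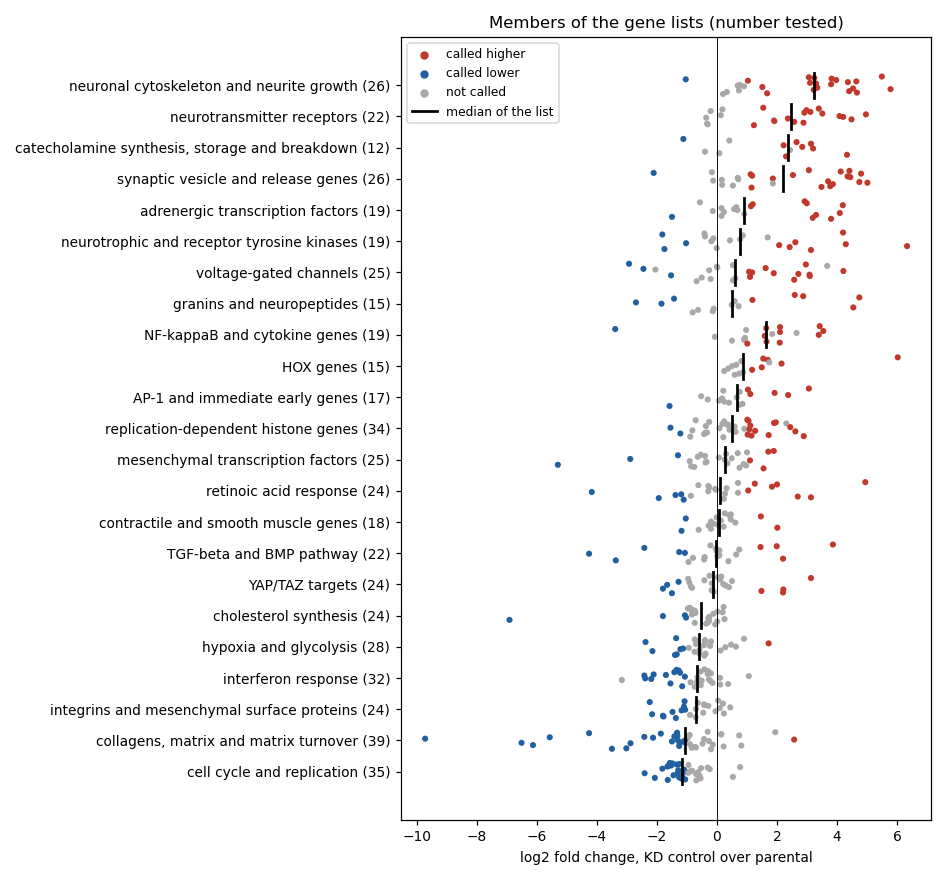
Log2 fold change of KD control over parental cells for each tested member of 23 gene lists (1 point a gene, red called higher, blue called lower, grey not called), with the number tested in parentheses and the list median as a black line. Neuronal lists lie to the right of 0, with a median of 3.23 for neurite genes, and cell cycle genes to the left, with a median of -1.16.

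Among adrenergic transcription factors, 9 of 19 tested genes were called higher and 1 lower in KD control, and the median log2 fold change was 0.91. In the set without strand overlap, 8 were higher and 1 lower. HAND1, of sympathetic precursors, had 1736 and 1859 counts in KD control and 79 and 93 in parental libraries (log2 fold change 4.19, SE 0.095, edgeR adjusted p = 7.29e-11). GATA2, a factor of the same lineage (chromosome 3 of GRCh38, 128479427 to 128493201), had 8833 and 10037 against 952 and 1134 counts (2.99). The groups stood far apart for both. ZNF536 (3.80), SIX3 (3.30), TFAP2B (3.19) and DACH1 (2.92) followed on the log2 fold change scale. HAND2 (1.13) and GATA3 (1.19) differed less. PHOX2A and ISL1 were not called, at log2 fold changes of 0.23 and 0.15. TBX2 was the exception, with 5761 and 5644 counts in KD control below 12219 and 16143 in parental libraries (log2 fold change -1.5). Set against parental cells, overexpression called 11 of the 19 genes higher and 1 lower, median 1.25. Directly against KD control it had 5 higher and 1 lower. GATA2 was among the higher ones, with a log2 fold change of 1.01 over KD control.

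Genes of noradrenaline handling came next. Of 12 tested genes for catecholamine synthesis, storage and breakdown, 7 were called higher and 1 lower in KD control, with a median log2 fold change of 2.37. DBH, which turns dopamine into noradrenaline, had 1933 and 2352 counts in KD control and 260 and 339 in parental libraries (log2 fold change 2.65, SE 0.093, edgeR adjusted p = 1.62e-09). DDC, which makes dopamine from L-DOPA, had 1399 and 1525 against 123 and 170 counts (log2 fold change 3.13). The groups did not overlap for either gene. The vesicular transporter gene SLC18A1 (log2 fold change 4.33), the noradrenaline transporter gene SLC6A2 (2.30), GCH1 of the TH cofactor pathway (2.22) and the monoamine oxidases MAOA (2.84) and MAOB (3.20) were also higher. Against parental cells, overexpression had 8 of 12 higher and none lower, with a median of 2.26, and directly against KD control 1 gene was higher and none lower.

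The neurite list held the highest median of the neuronal lists, a log2 fold change of 3.23. Of 26 genes tested 19 were called higher and 1 lower, or 16 and 1 in the set without strand overlap. NEFM, a neurofilament subunit, had 24116 and 28028 counts in KD control and 381 and 450 in parental libraries. Its log2 fold change was 5.78 (SE 0.075, edgeR adjusted p = 5.68e-12), and 26.4% of its exonic sequence is opposite another gene. STMN2, a microtubule regulator of growth cones, had 16564 and 19336 against 652 and 845 counts (log2 fold change 4.40). Both genes separated the groups without overlap. NEFL (4.53), the neuronal RNA-binding protein genes CELF4 (5.49), ELAVL3 (4.64) and ELAVL4 (4.36), the stathmin STMN4 (4.66), DCX, which binds microtubules in young neurons (3.82), and the adhesion molecule L1CAM (3.80) were called higher, each value a log2 fold change. The abundant MAP1B (0.69) and MAP2 (0.90) were not called, and DPYSL3, a collapsin response mediator, was lower at -1.04, or -0.998 and not called without the first KD control library. Overexpression called 22 higher and 1 lower of these genes against parental cells, with a median of 3.32. Directly against KD control it had 4 higher and 4 lower, among the latter NEFM at a log2 fold change of -1.67.

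Genes of the synapse were higher in most cases. Of 26 synaptic vesicle and release genes, 17 were called higher and 1 lower, median 2.20 on the log2 fold change scale. SYT4, a synaptotagmin, had 11808 and 13455 counts in KD control against 704 and 920 in parental libraries (log2 fold change 3.77). SYN2 (5.01) and SYN1 (4.74), which tether vesicles and the complexin CPLX1 (4.41) led the list. SYT11 and SYT1, among its abundant members, were not called, at 0.53 and 0.17. NLGN1, a postsynaptic adhesion gene, was lower at -2.11. Against KD control, overexpression had 5 of the 26 higher and 2 lower, and against parental cells 17 higher and none lower.

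Among neurotransmitter receptors, 15 of 22 tested genes (34 listed) were called higher and none lower, with a median log2 fold change of 2.47. CHRNA3, a nicotinic subunit of autonomic ganglia, had 6289 and 7254 counts in KD control and 661 and 850 in parental libraries (log2 fold change 2.98). DRD2, the dopamine D2 receptor gene, had 246 and 223 against 7 and 6 counts (log2 fold change 4.96, SE 0.26, edgeR adjusted p = 3.79e-08). Overexpression libraries held 246 and 233 DRD2 counts, and the direct test against KD control gave a log2 fold change of 0.18 (adjusted p = 0.339), which is no test of equality. The AMPA receptor subunit GRIA3 (4.48) and the GABA receptor subunit GABRB1 (4.08) were also higher, and GABRB1 was not called without the first KD control library (3.79). GRIN2A, an NMDA receptor subunit, stood apart from this list, at 0 and 1 counts in KD control, 0 and 0 in parental and 349 and 328 in overexpression libraries, and was not tested in the comparison with parental cells. Of the 22 receptors tested in KD control against parental cells, overexpression had 16 higher than parental cells and 7 higher and 2 lower than KD control.

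Voltage-gated channels were mixed, with 11 of 25 called higher and 3 lower, median 0.61. KCNH2 (4718 and 4785 against 558 and 715 counts, log2 fold change 2.71) and the sodium channel gene SCN3A (2.57) were higher. The P/Q calcium channel gene CACNA1A (75 and 96 against 545 and 594 counts, log2 fold change -2.93) and KCNMA1 (-1.53) were lower. SCN2A was not called, at -0.21. This list also differed between KD control and overexpression, where 12 were called higher and 1 lower in overexpression.

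Granins and neuropeptides had 5 of 15 tested members (26 listed) called higher and 3 lower, median 0.49. CHGB, a granin of secretory granules, had 6889 and 7404 counts in KD control and 223 and 246 in parental libraries (log2 fold change 4.74), and overexpression lay 2.10 below KD control on the log2 scale. SCG3 (log2 fold change 4.54) and GAL (1.18) were higher, and NTS (-2.70), PAM, which amidates peptides (-1.85), and CPE (-1.43) were lower. CHGA was called on 27 and 135 against 10 and 9 counts, so its 2 KD control libraries stood far apart. Of its 31-base sequences, 90.3% also occur on alternate contigs of the reference, and without the second KD control library it was no longer called (mean too low, log2 fold change 1.34). Fits without any 1 library called 3 to 6 of the list higher, with 3 in the fit without the second KD control library. CALCB (2.59), of the calcitonin family, lost its call without the first (2.46) or the second (2.72) KD control library.

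Receptors for neurotrophic factors were among the genes that separated the groups most. NTRK2, the BDNF receptor gene (chromosome 9 of GRCh38, 84668551 to 85027054), had 9267 and 11466 counts in KD control and 94 and 131 in parental libraries, a log2 fold change of 6.33 (SE 0.11, edgeR adjusted p = 1.63e-11). RET, the GDNF receptor and a known ATRA response gene, had 54357 and 64786 against 5134 and 6806 counts (log2 fold change 3.13). ALK, a kinase mutated in some neuroblastomas, had 1847 and 2487 against 84 and 123 counts (log2 fold change 4.20). No KD control value overlapped a parental one in these 3 genes, as in most genes tested. NGFR (4.29) and NTRK3 (2.42) were also higher. EGFR (-1.82), PDGFRB (-1.75) and MET (-1.03), receptors common on mesenchymal cells, were lower, which gave 7 higher and 3 lower of 19 and a median of 0.77.

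**Figure D3:**
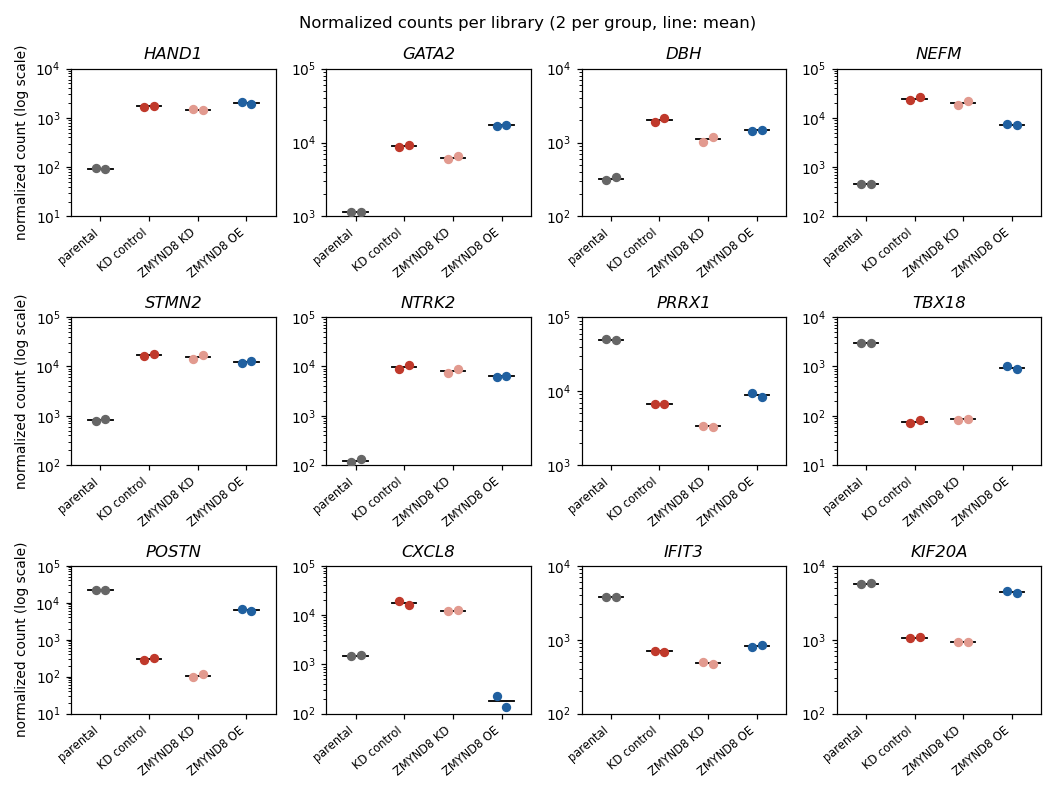
Normalized counts, on log axes, of 12 genes in the 8 libraries, with 1 point a library and a line at the mean of each group. KD control and parental points are apart in every panel, as for most genes tested. For CXCL8 the KD control lies above and ZMYND8 overexpression below the parental cells.

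The mesenchymal transcription factors were split. Of 25 tested, 4 were called higher and 3 lower in KD control, median 0.26. PRRX1, which drives the mesenchymal state (chromosome 1 of GRCh38, 170662728 to 170739421), had 6801 and 7151 counts in KD control and 41996 and 48776 in parental libraries (log2 fold change -2.89, SE 0.053, edgeR adjusted p = 2.17e-11). TBX18, a factor of mesenchymal progenitors, had 73 and 87 against 2482 and 3058 counts (log2 fold change -5.30). KD control libraries were far below parental ones for both. IRF1 was lower at -1.30. ZEB2 (1.55), EGR3 (1.71), RUNX2 (1.10, or 0.95 and not called after correction for GC content with gene length) and BHLHE41 (1.89) were higher, and the AP-1 gene FOSL1 (1.00), SOX9 (0.89) and NOTCH2 (0.49) were just short of a call or below it. The same list had 2 higher and 11 lower, median -0.80, in overexpression over parental cells. The direct test found 9 genes lower and 1 higher in overexpression than in KD control. RUNX2 and BHLHE41 were among the lower ones, at -3.59 and -3.61 on the log2 scale, and TBX18 was the higher one, at 3.72 (SE 0.10, edgeR adjusted p = 7.46e-13).

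Collagens, matrix proteins and their enzymes were lower in KD control for 20 of 39 genes and higher for 1, with a median log2 fold change of -1.07. Fits without any 1 library called 19 to 21 of them lower. FBN2, a microfibril protein, had 1 and 0 counts in KD control and 454 and 480 in parental libraries, which is at least 181-fold lower when the KD control is set at 3 counts per library. POSTN, a matricellular protein (chromosome 13 of GRCh38, 37562583 to 37598844), had 292 and 354 against 18094 and 21442 counts (log2 fold change -6.13, SE 0.074, edgeR adjusted p = 5.68e-12). TNC, another matricellular protein, had 6380 and 7592 against 59998 and 78741 counts (-3.50). All 3 separated the groups. COL8A1 (-5.57), COL1A2 (-4.26), TIMP3 (-3.02), MMP14 (-2.88), COL6A3 (-2.42), COL3A1 (-1.87) and COL1A1 (-1.33) were lower as log2 fold changes, and MMP1 at least 19-fold lower, with 1 and 0 against 45 and 56 counts. The mean of MMP1 was too low for a call without either parental library (fitted log2 fold changes -6.55 and -6.49). LAMA1, a laminin chain of basement membranes, was higher (48 and 62 against 9 and 7 counts, 2.57). The fibronectin gene FN1 (-0.43) and SPARC (0.22) were not called.

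The matrix list differed in detail between the KD control and overexpression. Against parental cells, overexpression had 26 of the 39 genes lower and 2 higher, and directly against KD control 10 were higher and 13 lower. POSTN was 4.43 higher in overexpression than in KD control on the log2 scale (SE 0.082, edgeR adjusted p = 1.96e-14). COL5A2, a fibrillar collagen, had log2 fold changes of 0.74 in KD control and -3.29 in overexpression over the shared parental libraries, a difference of -4.03.

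Integrins and mesenchymal surface proteins had 10 of 24 lower and none higher, median -0.71. CAV1, the caveolin gene, had 4672 and 4848 counts in KD control and 18422 and 20846 in parental libraries (log2 fold change -2.24). ITGB5 (-2.16), NT5E, which makes adenosine at the surface (-1.80), and the intermediate filament gene VIM (-1.37, with 24.3% of its exon bases opposite another gene) were lower. CD44 and ITGA1 were not called, at 0.20 and 0.44, and overexpression lay -2.75 and -2.79 from KD control for these genes on the log2 scale. Overexpression had 18 of the 24 lower than parental cells and 7 lower than KD control.

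Contractile genes, YAP/TAZ targets and the TGF-beta and BMP pathway were near the background or split. Of 18 contractile genes 2 were higher, the tropomyosin TPM2 (2.01) and CNN1 (1.46), and 2 lower, FLNA (-1.04) and ZYX (-1.18). FLNA was not called without the second KD control (-0.99) or the second parental library (-0.97), and after correction for GC content with gene length neither FLNA (-0.86) nor ZYX (-0.78) was. Of 24 YAP/TAZ targets 4 were higher and 4 lower, with ANKRD1 (3979 and 3772 against 361 and 413 counts, log2 fold change 3.13) opposite to CCN2 (-1.28) and to YAP1 itself (-1.5). Of 22 TGF-beta and BMP genes 4 were higher and 5 lower. TGFBI, a secreted matrix protein, had 10736 and 11811 counts in KD control and 90303 and 114317 in parental libraries (log2 fold change -3.37). The BMP antagonist NOG was lower (9 and 5 against 105 and 136 counts, -4.26), and the ligands BMP2 (3.86) and TGFB2 (2.20) were higher. In overexpression, 10 contractile genes, 13 YAP/TAZ targets and 11 TGF-beta and BMP genes were lower than in parental cells, and 9, 11 and 7 were lower than in KD control. ANKRD1 was among the latter, at a log2 fold change of -5.11, and TGFB2 at -4.91.

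Both groups had received ATRA, and its response genes were split, with 7 of 24 called higher and 5 lower and a median log2 fold change of 0.10. CYP26B1, which breaks down ATRA, had 48280 and 55532 counts in KD control and 11331 and 14399 in parental libraries (log2 fold change 1.83). It was higher with no overlap. NR2F2, an orphan receptor gene induced by ATRA in many cells, had 36 and 49 against 653 and 683 counts (-4.17), and overexpression was 4.01 above KD control on the log2 scale. The receptor genes RXRA (-1.94) and RARG (-1.19, or -0.91 and not called after correction for GC content with gene length) were lower, while RARA (0.70) and RARB (0.27) were not called. CYP26A1, the other main ATRA hydroxylase, had 1586 and 1843 against 1633 and 2042 counts (log2 fold change -0.29), and overexpression lay 5.19 above KD control. ALDH1A2, which makes retinoic acid, had 55 and 58 against 1 and 2 counts, at least 16-fold higher, and its mean was too low for a call without either KD control library (fitted log2 fold changes 4.95 and 4.94). The transglutaminase TGM2, the member with the highest mean count, was lower at -1.11, and CRABP2, which carries ATRA to the nucleus, was not called, at -0.62.

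HOX genes, many of which respond to ATRA in embryonic cells, had 6 of 15 tested members called higher and none lower, with a median of 0.87. The list holds 27 genes, and those not tested had few or no counts in the 4 libraries. HOXC4 had 1819 and 1839 counts in KD control and 349 and 374 in parental libraries (log2 fold change 2.15). HOXB3 (1.69), HOXB2 (1.54), HOXC8 (1.49) and HOXD1 (1.17, with 60.1% of its exon bases opposite another gene) were higher, and HOXA3, with 49 and 42 against 0 and 1 counts, was at least 12-fold higher. After correction for GC content with gene length, 10 were called higher and 0 lower. Fits without any 1 library called 4 to 7 of them higher. HOXA3 lost its call, through its mean, without either KD control library (fitted log2 fold changes 5.87 and 6.16, which like those of other genes near 0 counts depend on the prior count of the fit), and HOXD1 without the second KD control (0.98) or the first parental one (0.88). The direct test put 5 of the 15 lower and 3 higher in overexpression than in KD control, with HOXB2 at -3.53 and HOXC8 at -2.54.

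NF-kappaB is a family of transcription factors that inflammatory signals release from the IκB inhibitors in the cytoplasm. Of 19 tested genes, 10 were called higher and 1 lower in KD control, with a median log2 fold change of 1.64, and 8 and 1 in the set without strand overlap. An NF-kappaB motif, GGG and TTTCC with any 2 bases between them, was searched on both strands in the 300 bases around the start site (250 before, 50 after) of each promoter in the RefSeq table for GRCh38.p14. It was present in 9 of 18 listed promoters and 1.92% of all 27305. The variant GGAATTTCC, which can overlap the first, was in 7 of 18 and 0.472%. Of the 7 promoters of genes called higher, 5 held one or the other. By form, 3 of these 7 held the first and 2 the variant, no larger a share than among all 18 listed. NFKBIA and NFKB1, which were not called, held both. The list was drawn up from genes of this response, so its share above that of all promoters is no test. Such a match describes the letters and is no proof of a bound site. The matches, in capitals with up to 10 bases to each side, are shown for the 5 called genes holding one, whose counts are described next. They run along the strand of the gene, and CXCL8 and ICAM1 match the variant.
CXCL8, chr4:73740468-73740496, plus strand: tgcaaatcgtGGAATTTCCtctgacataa
ICAM1, chr19:10270924-10270952, plus strand: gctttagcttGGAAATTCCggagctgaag
BIRC3, chr11:102317275-102317304, plus strand: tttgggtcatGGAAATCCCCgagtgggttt
IL32, chr16:3065294-3065323, plus strand: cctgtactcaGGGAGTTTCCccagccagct
TNFAIP3, chr6:137867182-137867211, plus strand: acgtgactttGGAAAGTCCCgtggaaatcc

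CXCL8, a neutrophil chemokine gene (GRCh38 chromosome 4, 73740541 to 73743716), had 19741 and 17101 counts in KD control and 1204 and 1579 in parental libraries. The groups did not overlap, and the log2 fold change was 3.54 (SE 0.091, edgeR adjusted p = 1.59e-10). BIRC3, an inhibitor of apoptosis, had 3380 and 3236 against 284 and 257 counts (3.42), and the cytokine IL32 had 1748 and 1597 against 120 and 160 (3.39). ICAM1, an adhesion molecule for leukocytes, had 52628 and 48575 against 9162 and 11610 counts (2.10), and 25.4% of its exon bases are opposite another gene. The chemokine CCL2 (2.10), TNFAIP6 (2.09), the NF-kappaB inhibitor TNFAIP3 (1.65), CSF1 (1.64), LIF (1.59) and VCAM1 (1.01) were also higher. The IκB gene NFKBIA (0.92) and the subunit genes NFKB2 (0.93), RELB (0.50) and NFKB1 (-0.07) were not called. CXCL12, a chemokine of stromal cells, was lower, with 5 and 11 against 75 and 73 counts (-3.39). VCAM1 was not called without the second KD control (0.99) or the second parental library (0.98). IL6 and CXCL1 had at most 1 count in any of the 4 libraries and were not tested.

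Against parental cells, 17 of these genes could be tested in ZMYND8 overexpression, with 2 called higher and 7 lower and a median of -0.54. The direct test called 14 of 19 lower and 1 higher in overexpression than in KD control, with a median of -2.59. Of the 20385 genes tested in KD control against parental cells, it called 1804 lower. CXCL8 was the lowest of these (log2 fold change -6.47, SE 0.14, edgeR adjusted p = 1.09e-13), followed by LIF (-4.60) and CSF1 (-4.03). Dox is named in the labels of overexpression and parental cells and not in that of the KD control, and its part in these differences was not tested.

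**Figure D4:**
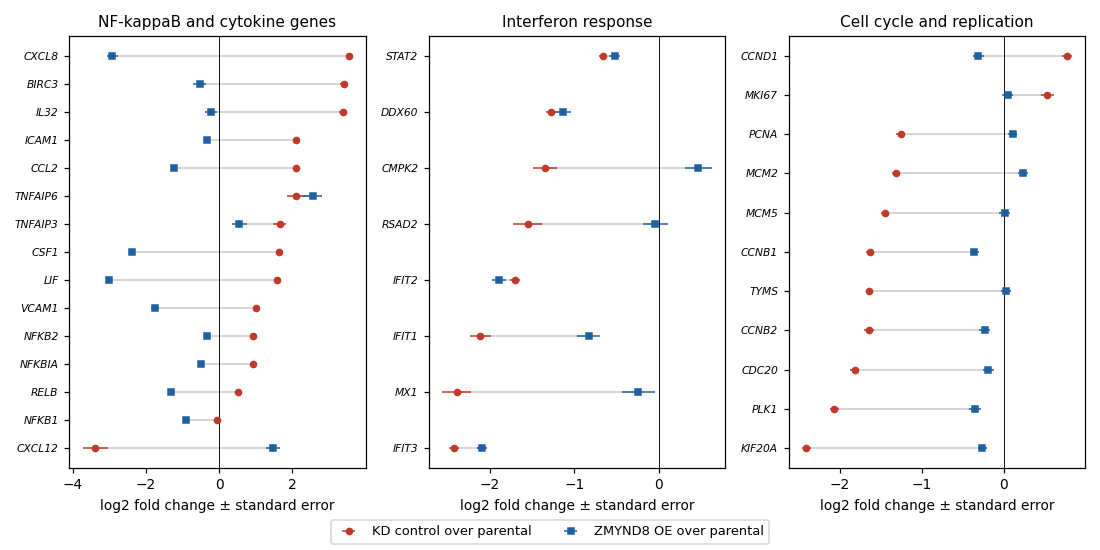
Log2 fold changes with standard errors for members of the NF-kappaB, interferon and cell cycle lists that are named in the text, in KD control over parental cells (red circles) and ZMYND8 overexpression over parental cells (blue squares), which share the 2 parental libraries. CXCL8 has values of 3.54 and -2.92, and KIF20A of -2.41 and -0.26.

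Interferon response genes leaned to the other side. Of 32 tested genes, 12 were called lower and none higher in KD control, median -0.66, and the same counts held in the set without strand overlap. The letters of an interferon-stimulated response element (ISRE), GAAA and GAAA with any 2 bases between them, were found on either strand in 16 of 26 listed promoters and in 3.65% of all, and in 6 of the 9 promoters of genes called lower. Members that were not called, such as ISG15 and PARP14, held it too, so the match did not set the called genes apart. The list was drawn up from interferon response genes, so a share above that of all promoters is no test. The following 3 windows are shown for the genes with values below, with the match in capitals.
IFIT1, chr10:89392497-89392526, plus strand: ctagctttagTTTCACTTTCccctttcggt
IFIT3, chr10:89327865-89327894, plus strand: tttaaattagTTTCACTTTCcagtttcctc
MX1, chr21:41420559-41420588, plus strand: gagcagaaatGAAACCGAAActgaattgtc

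IFIT3, an antiviral protein, had 732 and 736 counts in KD control and 3132 and 3752 in parental libraries (log2 fold change -2.42, SE 0.057, edgeR adjusted p = 9.91e-11). IFIT1 had 238 and 342 against 983 and 1215 (-2.11), and MX1, an antiviral GTPase, 113 and 190 against 618 and 769 (-2.39). KD control values were below parental values throughout. IFIT2 (-1.70), RSAD2 (-1.55), CMPK2 (-1.35) and DDX60 (-1.28) followed, while the signal transducer STAT2 (-0.66) was not called. In overexpression over parental cells, 6 were higher and 6 lower. Directly, 12 were higher and 2 lower in overexpression than in KD control, with MX1 at 2.14 and IFIT3, at 0.32, not called.

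Genes of the cell cycle and of DNA replication were lower in KD control for 21 of 35 members and higher for none, against 10.9% of all genes called lower. The median log2 fold change was -1.16, 33 of 35 were lower at the adjusted p alone, and 17 were called lower in the set without strand overlap. In promoters of such genes, the letters TTTGAA are known as the cell cycle genes homology region (CHR). They occurred on either strand in 9 of 27 listed promoters and 15.4% of all, and CCAAT, the NF-Y box, in 22 of 27 and 35.7% of all. Among the 15 promoters of genes called lower, 5 held TTTGAA and 12 held CCAAT. MKI67 and CENPF, which were not called, held both, so the matches did not set the called genes apart. The list was drawn up from cell cycle genes, so a share above that of all promoters is no test. The 3 windows shown have TTTGAA in capitals near the start site, in genes of mitosis.
PLK1, chr16:23678850-23678875, plus strand: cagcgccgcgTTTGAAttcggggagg
CCNB2, chr15:59105107-59105132, plus strand: cgacgcggtaTTTGAAtcctggaaca
CDC20, chr1:43358906-43358931, plus strand: acggttggatTTTGAAggagccaata

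KIF20A, a kinesin of the spindle and cytokinesis (chromosome 5 of GRCh38, 138178719 to 138187723), had 1097 and 1159 counts in KD control and 4676 and 5834 in parental libraries (log2 fold change -2.41, SE 0.052, edgeR adjusted p = 5.98e-11). PLK1, a mitotic kinase, had 1208 and 1234 against 4119 and 4865 counts (-2.07). CDC20, which activates the anaphase-promoting complex, had 1120 and 1234 against 3246 and 4073 (-1.82). The 2 groups were apart in all of these. The cyclins CCNB2 (-1.65) and CCNB1 (-1.63), thymidylate synthase TYMS (-1.64, with 47.5% of its exon bases opposite another gene), the helicase subunits MCM5 (-1.45) and MCM2 (-1.32) and the clamp PCNA (-1.26) were lower as well. MKI67, the proliferation marker, went against the list without a call, with 16525 and 20690 counts in KD control and 10672 and 11766 in parental libraries (log2 fold change 0.53). CCND1, the G1 cyclin, was not called either, at 0.77. In overexpression over parental cells, 0 of 35 genes were called in either direction, with a median of -0.19. Directly, 18 were higher and 1 lower in overexpression than in KD control. KIF20A was 2.14 higher (SE 0.054, edgeR adjusted p = 2.96e-13).

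Replication-dependent histone genes, which peak in S phase, did not follow the cell cycle list. Of 34 tested, 13 were called higher and 2 lower in KD control, median 0.51. H4C5 had 9525 and 10429 counts in KD control and 1179 and 1162 in parental libraries (log2 fold change 2.89). H3C12 (2.61) and H2BC14 (2.44) were higher, and H2BC17 (-1.55) and H3C8 (-1.22) lower. After correction for GC content with gene length, 17 were called higher and 0 lower, with a median of 1.05, and H2BC17 (-0.999) and H3C8 (-0.94) were not called. Histone mRNAs lack poly(A) tails, and their copies are alike in sequence, 38.2% of the 31-base sequences of H3C12 being found in other genes.

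Lists of metabolism and stress showed fewer calls. Of 24 cholesterol synthesis genes, 4 were lower and none higher, median -0.54. LSS (-1.80) and MVD (-1.03), enzymes of the pathway, were lower. MVD was not called without the second KD control library (-0.95). Of the 31-base sequences of LSS, 77.5% occur on alternate contigs. Of 28 hypoxia and glycolysis genes, 7 were lower and 1 higher, with CA9 (-2.38), PFKFB3 (-2.15) and SLC2A3 (-1.40) against EGLN3 (1.72). Of 17 AP-1 and immediate early genes, 5 were higher, led by ATF3 (3.06), FOSB (2.37) and EGR1 (1.92), and NR4A2 was lower (-1.58). Among 24 p53 targets, 2 were higher, BTG2 (1.26) and SPATA18 (1.5), or 8.33% against 10.8% of all genes. Of 29 genes of the ATF4 and amino acid response, STC2 (2.56) and ASNS (1.28) were higher and ALDH1L2 (-1.86) and DDIT4 (-1.12) lower. After correction for GC content with gene length, 5 of them were higher and 1 lower, and DDIT4 (-0.80) was not called. Of 15 Notch and neural progenitor genes, MSI1 was higher (2.98) and NOTCH1 (-1.60) and JAG2 (-1.01) lower. JAG2 was not called without the first KD control (-0.87) or the second parental library (-0.71), nor with a replicate block (-0.995).

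Genes that the study discusses for pluripotency, neurons and chromatin gave few calls beyond DRD2 and LAMA1. REST, the repressor of neuronal genes, had 12287 and 13364 counts in KD control and 6535 and 7597 in parental libraries, a log2 fold change of 0.67 that was below the fold threshold (adjusted p = 5.16e-07 in edgeR's test). The progenitor genes NES (0.62) and SOX2 (0.28) were not called, nor was TUBB3, a neuronal tubulin (206 and 195 against 140 and 166 counts, 0.20). MAPT, which makes tau, had 0 and 12 counts in KD control and 0 and 9 in parental libraries and was not tested. Of its 31-base sequences, 93.8% also occur on alternate contigs of the reference, so its count is uncertain. POU5F1, at 0 counts in all 4 libraries, NEUROG1, at 0 as well, and NANOG, at 5 and 5 against 9 and 1, were not tested. GFAP had 0 and 3 against 13 and 17 counts, at least 5-fold lower, with a mean too low for a call. In the list of 26 NuRD, p300/CBP, BET and PRC2 genes, 1 was called, CHD5, a neuronal remodeller, with 621 and 587 against 35 and 56 counts (3.55). CHD4 (0.63), CREBBP (0.38), EP300 (0.18), CDK9 (0.15), MTA1 (-0.06), EZH2 (-0.48) and HDAC1 (-0.66) were not called.

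Genes behind the KEGG terms of the study were chosen by it on the overexpression and parental libraries, so their direction is not independent where those libraries enter again. Of 221 tested genes from its terms for upregulated genes, 136 were called higher and 10 lower in KD control, median 2.04, and 128 and 10 in the set without strand overlap. Overexpression over parental cells called 216 of 220 of these higher, with a median of 2.86. Of 265 genes from its terms for downregulated genes, 100 were called lower and 17 higher in KD control, median -0.70, against 255 lower in overexpression, with a median of -1.59. In the direct test, overexpression had 113 of the former higher than KD control and 12 lower. Of the latter it had 123 lower and 17 higher. The overexpression libraries that the study used in its choice enter the direct test as well.

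Among coding genes with a mean above 100, the 10 largest increases included 5 mitochondrial genes. Apart from these and NTRK2, the largest increases were in HSPA6, AJAP1, CD177 and ARHGAP36. HSPA6, a stress-inducible HSP70, had 1134 and 990 counts in KD control and 7 and 7 in parental libraries (log2 fold change 7.04), and 57.1% of its 31-base sequences occur in other genes. AJAP1, a junction protein, had 268 and 327 against 4 and 0 counts (6.94) and 2792 and 2484 in overexpression libraries. CD177 had a log2 fold change of 6.46. ARHGAP36, a modulator of Hedgehog signalling and protein kinase A, had 1398 and 1397 against 18 and 13 counts (6.29), with 39 and 37 in overexpression libraries. AJAP1 was thus higher in overexpression than in KD control, and ARHGAP36 lower (direct log2 fold changes 3.30 and -5.05).

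The 10 largest decreases, besides FBN2 and POSTN, were in ABCA6, MDFIC, SULT1E1, COLEC10, MAL2, MGST1, EPHA1 and ASPN. MDFIC, a protein with a MyoD family inhibitor domain, had 16 and 8 counts in KD control and 1490 and 1749 in parental libraries (-7.25). SULT1E1, an oestrogen sulfotransferase, had 6 and 6 against 594 and 772 (-6.98), and ABCA6, a lipid transporter, 0 and 2 against 181 and 194, at least 72-fold lower. COLEC10 (-6.80), MAL2 (-6.50), MGST1 (-6.23), EPHA1 (-6.15) and ASPN (-6.12) each had at most 12 counts in a KD control library and 249 or more in each parental one. In overexpression libraries MAL2 kept 209 and 212 counts, and ASPN 24 and 38.

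Of the long noncoding RNAs, 410 of 4229 were called higher (9.69%) and 605 lower (14.3%). LINC00632, the host of the circular RNA CDR1as, had 3979 and 4769 counts in KD control and 89 and 111 in parental libraries (log2 fold change 5.26). ENSG00000274253 (4.98), COLCA1 (4.73) and PART1 (4.68) followed. The largest decreases were in PHLDA1-AS1, at least 289-fold, ENSG00000272540, at least 149-fold, ENSG00000269371, at least 103-fold, and ENSG00000225216, at least 93-fold. Of their exon bases, 97.2%, 69.6%, 100% and 9.06% lie opposite the exons of another gene. PHLDA1-AS1 had 2 and 3 counts in KD control and 704 and 791 in parental libraries, which is 0.0131% and 0.0195% of the PHLDA1 counts against 3.96% and 3.77%. In overexpression libraries it was 3.87% and 4.35%, with 5485 and 3840 PHLDA1 counts. THY1-AS1 (3 and 5 against 280 and 337 counts) showed the same, and ENSG00000269968, opposite GAPDH, was at 0.097% and 0.0915% of GAPDH in KD control and at 2.16% in both parental libraries. Over the 277 pairs, 215 had a lower antisense share in both KD control libraries. Whether reads were assigned by strand alike in the 2 sets of libraries was not tested, and decreases of genes that lie opposite others are uncertain.

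**Figure D5:**
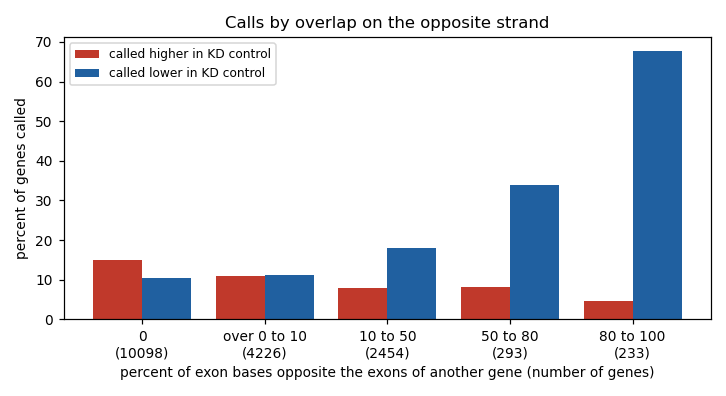
Percent of tested genes with a mean normalized count above 20 that were called higher (red) or lower (blue) in KD control, by the percent of their exon bases opposite exons of another gene, with the number of genes in parentheses. The share called lower is 10.3% without overlap and 67.8% at 80% or more.

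By overlap on the opposite strand, the share of genes called lower was 10.3% of 10098 genes without any, 11.2%, 18.0% and 33.8% in the groups between, and 67.8% of 233 genes with 80% or more. The median log2 fold change in that last group was -3.05. By GC content of the exons, 26.7% of genes above 60% were called lower and 10.5% higher, against 6.91% and 26.3% of genes below 36%.

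All 13 mitochondrially encoded proteins were called higher, median 5.60. MT-ND4, of complex I, had 213735 and 225087 counts in KD control and 2056 and 3666 in parental libraries (log2 fold change 6.09). MT-CO1, of complex IV, had 480982 and 476908 against 31585 and 59344 (3.24), and MT-ND6, the protein encoded on the light strand, 7693 and 8442 against 919 and 2005 (2.30). The second parental library had the higher count of the parental pair in all 3. The mitochondrial ribosomal RNA MT-RNR1 had 10542 and 8643 against 3 and 5 counts, and the nuclear snoRNA SNORD3A 174354 and 188911 against 334 and 221 (9.15). These 2 and the antisense RNAs opposite THY1 and GAPDH were picked after their values were seen. Overexpression libraries had none of the 13 higher and 1 lower than parental cells, and all 13 lower than KD control. Of snoRNA genes, 19 of 79 were called higher and none lower, and of snRNA genes 15 of 52 higher and 1 lower. Among structural RNAs, RN7SL1 (0.27) and MALAT1 (0.69) were not called.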

How the data were processed

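RNA from SK-N-SH cells was analysed in 8 libraries, of which KD control and parental libraries (2 each) form the comparison. The authors deposited raw read counts for each gene, as whole numbers. By the methods, Trim_Galore trimmed the reads and dropped those under a Phred score of 25, Hisat2 placed them on GRCh38, and featureCounts assigned them to GENCODE release 28. The submitters' processing notes name HISAT2, hg38 and DESeq2. The strand setting of the counting is not given in the sources used here.

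Here, 3 lines that hold pieces of 1 split gene were left out. Symbols came from GENCODE release 44, which holds 60418 of 60659 identifiers. After filterByExpr and TMM normalization, counts entered a two-sided quasi-likelihood test in edgeR 4.0.16 (R 4.3.3), with Benjamini-Hochberg adjustment over all genes tested, and the scripts were tested on simulated data. The call rule is given with the results. Folds against 3 counts or fewer in each library of a group are lower bounds set at 3 counts. Replicates differed by more than counting noise (chi-square per degree of freedom 5.52 to 7.97). Deviations of libraries with the same replicate number were little correlated (-0.094 over 13346 genes). With 2 libraries a group, this cannot show whether the libraries were paired.

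Named were the 10 coding genes and 4 lncRNAs with the largest change in each direction (mean above 100, groups apart), genes the study discusses, and in each list the 3 members of highest mean and the 3 called ones that differed most in each direction. Other members named were chosen after their values were seen. Members and lists were chosen with earlier results of these data known. Other settings tried were DESeq2 1.42.0, upper quartile and RLE normalization, other filters and thresholds, all 8 libraries in 1 fit, the replicate block, a gene length correction alone and with that block, thinned libraries, no mitochondrial genes and ZMYND8, and each library left out. The set without strand overlap and a correction for GC content with gene length were added after seeing the data. Some members that this rule names are not reported here.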

Additional observations from a re-analysis of the deposited data

How the results depend on the processing

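Of the 4412 genes called (2199 higher, 2213 lower), no threshold on fold change gave 12725 (6040 higher, 6685 lower), a threshold of 2 on the log2 scale gave 1782 (941 and 841), and a mean normalized count above 100 gave 2611 (1270 and 1341). Under every other alternative the count stayed within 1.5 times, with 4114 in DESeq2 and 3437 (1832 higher, 1605 lower) in the set without strand overlap, of which 3345 were shared. Leaving out each library in turn gave 4263 to 4617 genes, 2005 to 2450 higher and 1956 to 2397 lower. The lone sample of a group is then assumed to vary like the other group. With the replicate number as a replicate block 4422 genes were called, 2208 higher and 2214 lower, and for overexpression against KD control 4889, against 4873 without it. Of 693 named or listed genes 302 were called, 45 of these lost the call under at least 1 alternative, mostly at log2 fold changes near 1, and 0 reversed. After correction for GC content with gene length, 9 called genes of the whole table changed sign. Upper quartile factors raised the share of higher calls to 54.1%. With 2 libraries a group, the spread within groups rests on few values.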
